A study of Mus musculus with 7 samples.

Results

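The genes of the 4 Hox clusters were examined in mouse monocyte progenitors. They were chosen as all protein-coding genes of the mm10 RefSeq annotation whose symbol is Hox, a letter from a to d and a number. There were 39 of them among 21631 protein-coding genes of the autosomes and the X chromosome. Cluster A held 11 on chromosome 6, cluster B 10 on chromosome 11, cluster C 9 on chromosome 15 and cluster D 9 on chromosome 2. Their outer gene ends bound chr6:52155367-52260880 for A (105.514 kb), chr11:96194316-96368254 for B (173.939 kb), chr15:102921131-103036856 for C (115.726 kb) and chr2:74668225-74765142 for D (96.918 kb). A gene was called in a library when an interval of that library's peak list overlapped it or lay within 5 kb. Peak values took no part in the rule that chose the members, though earlier results of these data were known when it was set.

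The Hox genes encode homeodomain transcription factors and lie in 4 clusters, named A to D, which arose by duplication of 1 ancestral cluster. Genes that occupy the same place in different clusters carry the same paralogue number, from 1 at the end used first and most anteriorly in the embryo to 13 at the end used last and most posteriorly. In blood, genes of cluster A and some of cluster B are known from stem and early progenitor cells, where HOXA9 works with MEIS1 and where MLL fusion proteins keep the HOXA genes active in leukaemia. Silent Hox genes are typically held by Polycomb complexes, and active ones carry methylation of lysine 4 of histone H3. Dimethylation of that lysine (H3K4me2) marks promoters and enhancers, and trimethylation (H3K4me3) marks mainly promoters.

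The cells were common monocyte progenitors (cMoPs), a committed monocyte precursor, sorted from mouse bone marrow. They were profiled by CUTAC, in which an antibody to a histone mark tethers a transposase that, without salt, cuts accessible DNA beside the mark. H3K4me2 was profiled in 2 libraries of genotype DE and 2 of genotype WT, all of batch 2, where the genotypes are variants of an enhancer of Zeb2 at -165 kb. H3K4me3 was profiled in 1 WT library of batch 1. The labels do not spell out DE, and give no strain, age, sex or number of animals. Separate animals are not stated for the replicates, so p-values measure only the spread between these libraries, which may be technical. An IgG library of cMoPs and an H3K4me3 library of MDPs, another bone marrow population, are labelled and were not analysed here.

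Intervals of the autosomes and the X chromosome were kept, each counted once. The H3K4me2 lists then held 21942 and 17059 intervals in DE and 32308 and 28123 in WT. The H3K4me3 list held 6424. The median interval was 249 and 246 bp wide in DE and 152 and 212 bp in WT. The longer WT lists give a gene more chances of a call. The lists give no library total, and the values of a peak move with its library's depth, so DE and WT values of a region are set side by side below and were not tested. Of all protein-coding genes, 47.6% were called in all 4 H3K4me2 lists, the share against which markers are read. Of 8 genes expected in cMoPs or their precursors, 7 were called in all 4 (Csf1r, Ly6c2, Irf8, Klf4, Kit, Mpo and Elane), and Cx3cr1 was called in both WT lists and neither DE list. Of 3 markers each, lists of other cells had 1 called in all 4 for B cells, 2 for T cells, 2 for erythroid cells, 2 for dendritic cells and 2 for stem cells. Cd3e, Gata1 and Siglech had no call in any list. A list from pooled cells cannot tell a mark in fewer cells from less of it per cell, and the part of other cell types in the results below was not tested.

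Paralogue groups 4 and 9 have a gene in every cluster, and the 250 bases upstream of their starts are shown to set promoters of the called clusters beside those of the uncalled ones. They are from RefSeq on GRCm38.p6, the mm10 build, 5′ to 3′ on the gene's strand, with each CpG in capitals. Hoxa4, Hoxb9 and Hoxc9 had no entry.
Hoxb4 (chr11:96318017-96318266, plus strand): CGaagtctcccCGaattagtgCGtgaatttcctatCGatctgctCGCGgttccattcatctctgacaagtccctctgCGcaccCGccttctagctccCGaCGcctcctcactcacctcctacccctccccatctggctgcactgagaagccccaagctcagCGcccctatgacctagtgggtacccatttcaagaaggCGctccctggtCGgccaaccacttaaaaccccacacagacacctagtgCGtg
Hoxc4 (chr15:103034145-103034394, plus strand): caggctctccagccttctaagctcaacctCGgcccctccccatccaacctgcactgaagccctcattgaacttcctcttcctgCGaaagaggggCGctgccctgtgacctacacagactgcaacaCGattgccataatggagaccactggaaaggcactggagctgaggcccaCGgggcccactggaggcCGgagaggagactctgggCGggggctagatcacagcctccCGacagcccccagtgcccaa
Hoxd4 (chr2:74721728-74721977, plus strand): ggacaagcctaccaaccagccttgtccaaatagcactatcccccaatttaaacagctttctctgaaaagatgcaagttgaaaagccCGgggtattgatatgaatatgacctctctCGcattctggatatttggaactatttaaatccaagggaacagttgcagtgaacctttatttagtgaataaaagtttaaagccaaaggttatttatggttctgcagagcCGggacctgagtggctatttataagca
Hoxa9 (chr6:52227371-52227620, minus strand): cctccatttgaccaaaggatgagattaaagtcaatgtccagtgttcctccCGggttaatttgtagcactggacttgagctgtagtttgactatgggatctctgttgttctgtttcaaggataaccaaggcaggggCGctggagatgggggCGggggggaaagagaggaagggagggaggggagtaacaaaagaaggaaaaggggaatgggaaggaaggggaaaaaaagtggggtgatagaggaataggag
Hoxd9 (chr2:74697513-74697762, plus strand): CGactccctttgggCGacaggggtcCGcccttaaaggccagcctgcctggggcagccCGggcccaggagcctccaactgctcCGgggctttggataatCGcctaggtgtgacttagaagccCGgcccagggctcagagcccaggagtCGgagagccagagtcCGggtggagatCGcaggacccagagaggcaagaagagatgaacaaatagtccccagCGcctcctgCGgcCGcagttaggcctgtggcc
The window of Hoxb4 held 14 CpGs and was overlapped by an interval in both DE lists, and the nearest interval lay 57 and 40 bp away in WT. The window of Hoxc4 held 8 CpGs, and the nearest interval was 147867 and 128973 bp away in DE and 128818 and 128869 bp away in WT. The window of Hoxd4 held 3 CpGs, with its nearest interval 103784 and 103804 bp away in DE and 103767 bp away in both WT lists.
The window of Hoxa9, also with 3 CpGs, had an interval 196 and 1065 bp away in DE and 1055 and 1049 bp away in WT. The window of Hoxd9 held 13 CpGs and its nearest interval was 118415 and 118413 bp away in DE and 118394 and 118392 bp away in WT. Across 32851 promoter windows of the same length the median was 6 CpGs, with quartiles of 2 and 16. The letters TGATNNAT, a form of the site that PBX and HOX proteins bind together, were in none of the 5 windows on either strand, and in 7.68% of all windows. The table matched 22 of the 39 genes, under the 80% needed, so a check of CpG or GC content over the members is void.

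Intervals were found in clusters A and B and not in C or D. Cluster A held 16 and 13 H3K4me2 intervals in DE and 18 and 17 in WT. Cluster B held 8 and 4 in DE and 7 and 7 in WT. Clusters C and D held 0 in each of the 5 lists, and the H3K4me3 list had 1 interval in A and 0 in B. In all, 0.109% and 0.0997% of the intervals of the DE lists lay at Hox genes, against 0.0774% and 0.0853% in WT. The map of intervals shows where they lay. Peak numbers ran without a gap in every list up to its highest number. Entries dropped from the end, or 1 of several entries that share a number, would leave no gap. Filtering before the numbering was not tested.

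**Figure D1:**
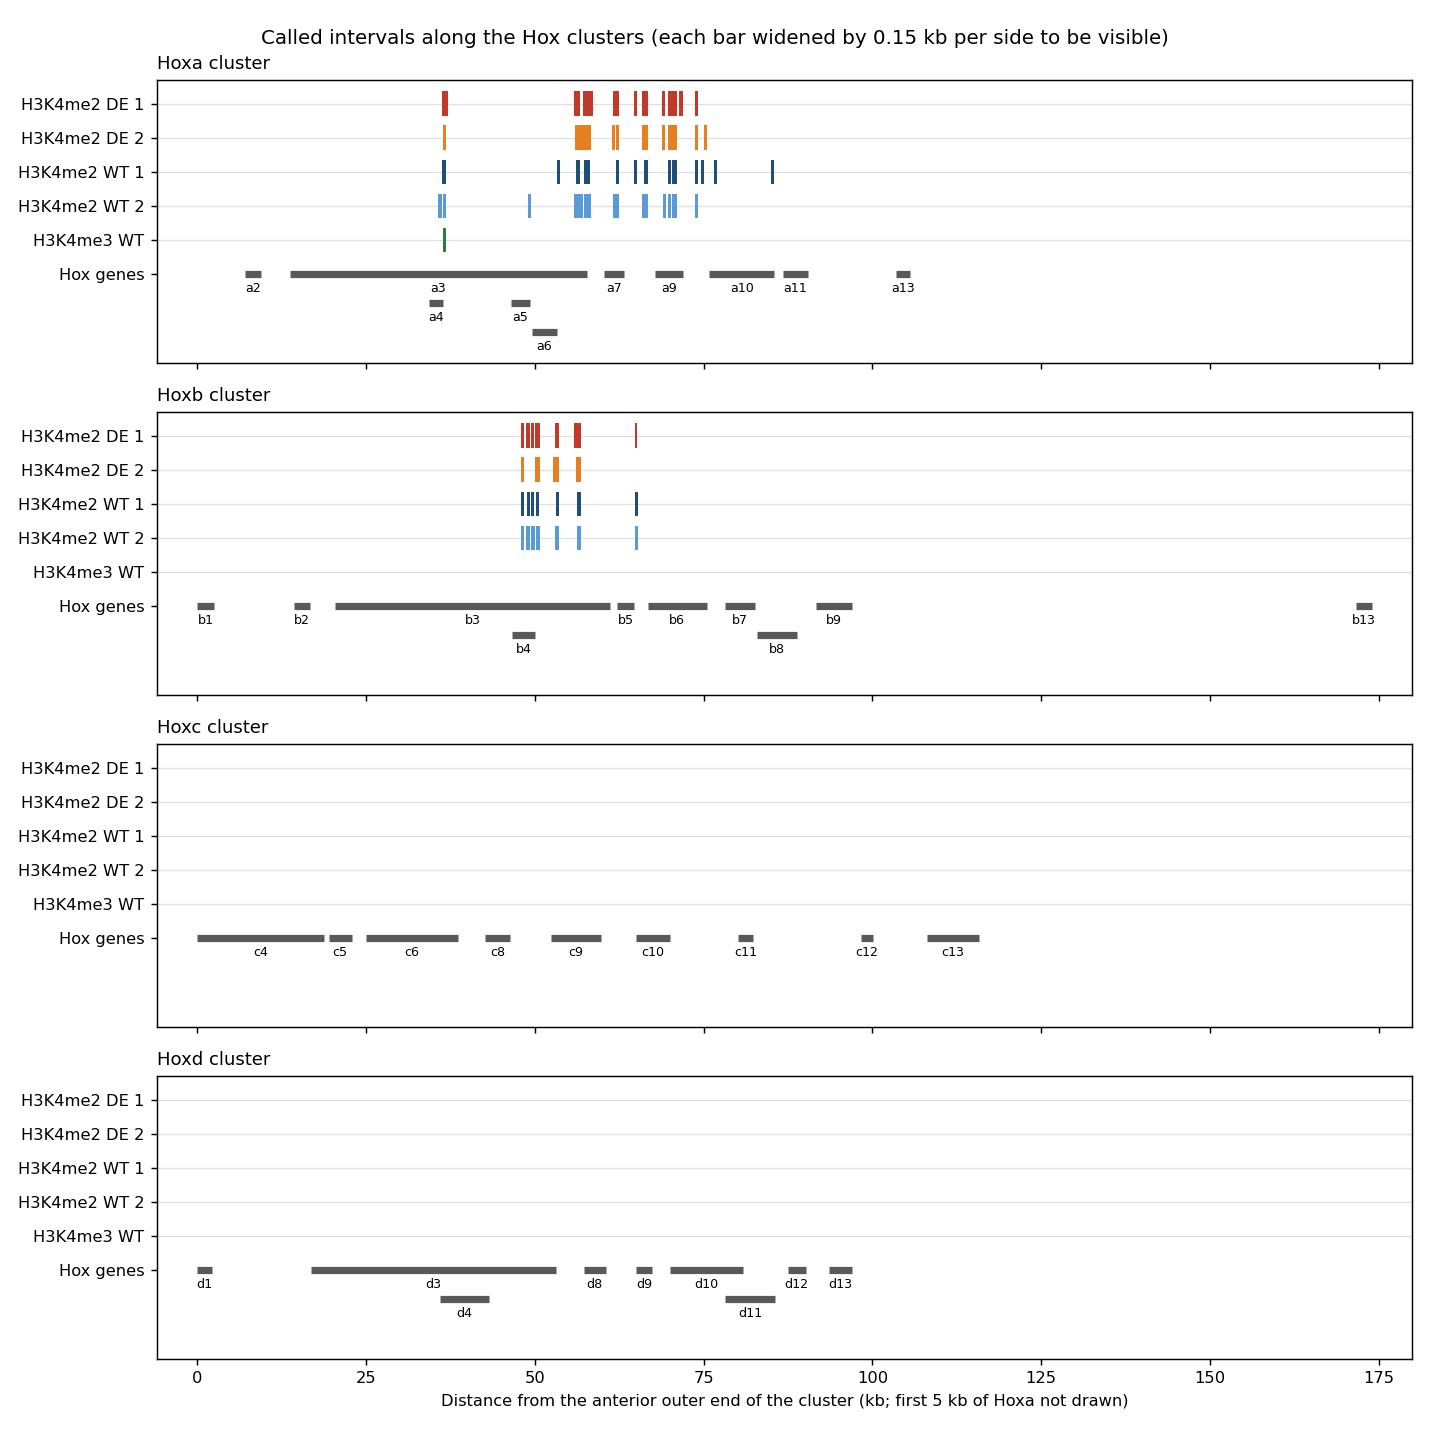
Called intervals along the Hoxa, Hoxb, Hoxc and Hoxd clusters, by distance in kb from the anterior outer end of the cluster. Each row is a library (2 H3K4me2 DE, 2 H3K4me2 WT, 1 H3K4me3 WT), coloured bars are intervals and grey bars are genes as annotated. The first 5 kb of Hoxa is not drawn. Bars crowd from the outer start of Hoxa3 to Hoxa10 and around Hoxb4, and the rows of Hoxc and Hoxd are empty.

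By gene, 12 and 10 of 39 Hox genes were called in the DE lists and 14 and 13 in the WT lists. Over all protein-coding genes the shares were 56.2% and 50.5% in DE and 62.2% and 60.8% in WT. Of the 39, 10 were called in all 4 H3K4me2 lists, where 47.6% of all genes were. The H3K4me3 list called 2 Hox genes, against 25.6% of all genes, and both were also in all 4 H3K4me2 lists, as 24.2% of all genes were. No list called 25 Hox genes, against 33.0% of all genes. Those 25 were Hoxa13, 6 genes of cluster B (Hoxb1, Hoxb2, Hoxb7, Hoxb8, Hoxb9 and Hoxb13) and all 9 genes each of clusters C and D. The calls came from 2 of the 4 clusters. In cluster A, 8 and 8 genes were called in DE and 10 and 9 in WT, and in cluster B, 4 and 2 in DE and 4 and 4 in WT.

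**Figure D2:**
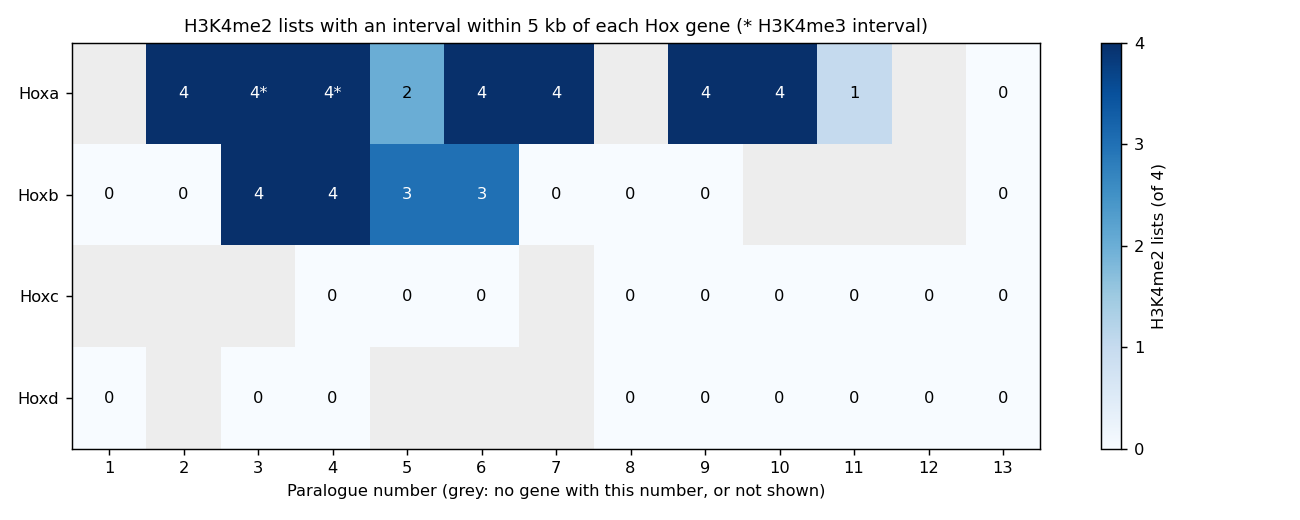
Number of H3K4me2 lists, of 4, with an interval within 5 kb of each Hox gene, by cluster (rows) and paralogue number (columns). Cells in grey have no gene or are not shown, and a star marks the 2 genes with an H3K4me3 interval. Cells with 4 lists lie in Hoxa and Hoxb, and every gene of Hoxc and Hoxd has 0.

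The share of bases under intervals gave the same order of clusters in each H3K4me2 library. In cluster A with 5 kb flanks, intervals covered 3.78% and 3.60% of bases in DE and 2.51% and 3.67% in WT. In cluster B they covered 1.15% and 0.904% in DE and 0.621% and 0.985% in WT. In clusters C and D they covered 0% in every library, where the autosomes as a whole had 0.267% and 0.201% in DE and 0.245% and 0.292% in WT. Cluster A was thus covered above B, and B above the autosomes, in 4 of 4 libraries. The autosomal share is over whole chromosomes, with the stretches between genes. By gene, 8 of 11 in A and 2 of 10 in B were called in all 4 lists, against 47.6% of all genes. Over the 4 libraries the mean coverage was 3.39% ± 0.589 in A and 0.914% ± 0.220 in B (SD, n = 4). Within libraries A exceeded B by 2.48 percentage points (range 1.89 to 2.69) and exceeded C and D by 3.39 (2.51 to 3.78), and B exceeded C and D by 0.914 (0.621 to 1.15). Each of these 5 differences had the same sign in 4 of 4 libraries, with p = 0.125 in an exact two-sided sign-flip permutation test and 0.15 after Benjamini-Hochberg adjustment over 6 pairs. That p is the smallest that 4 libraries can give, so the test could not reach 0.05. With C and D at 0% in every library, the differences from them are the coverage of A or B itself, which cannot be negative. Their sign and p show only that A and B had intervals in every library. Only A minus B could have had either sign. Clusters C and D did not differ, both being at 0 (exact p = 1).

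Whether coverage changed with the enhancer genotype was asked of each cluster. In cluster A the mean was 3.69% ± 0.133 in DE and 3.09% ± 0.815 in WT (SD, n = 2 each), a difference of 0.600 points, and the DE values lay on both sides of the higher WT value. In cluster B it was 1.03% ± 0.172 in DE and 0.803% ± 0.257 in WT (SD, n = 2 each), a difference of 0.223 points, again with overlapping groups. An exact two-sided permutation test over the 6 assignments of libraries gave p = 0.667 for A and for B, adjusted p = 1 over 4 clusters, in a design whose smallest p is 0.333. Both differences were below the SD of the WT replicates and above that of the DE replicates. WT replicate 1, the library with the narrowest intervals, had the lowest coverage in both clusters. Without that library the difference was 0.0238 points in A and 0.0410 in B. Cut to lists of equal length, cluster A was covered to 2.95% and 3.60% in DE and 1.94% and 2.93% in WT, and cluster B to 0.835% and 0.904% in DE and 0.544% and 0.725% in WT. Divided by each library's autosomal share, coverage of A was 14.2 and 17.9 times that share in DE and 10.3 and 12.6 times in WT, and that of B was 4.30 and 4.51 times in DE and 2.53 and 3.37 times in WT. On both of these scales the groups did not overlap, both DE libraries being above both WT libraries in A and in B, and the exact permutation p was 0.333 for each, the smallest the design allows.

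**Figure D3:**
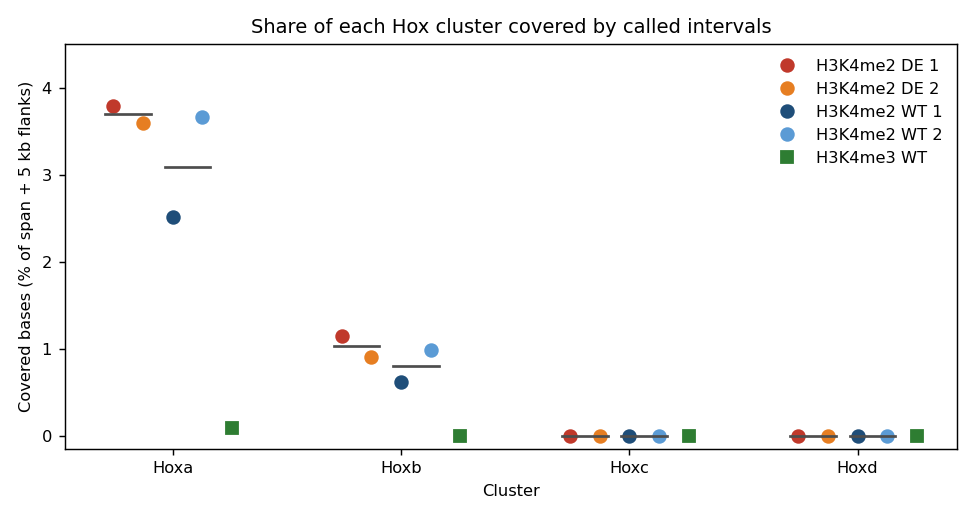
Share of bases of each Hox cluster, with 5 kb flanks, under called intervals in each library (percent). Circles are H3K4me2 libraries, with DE left of WT, lines are the means of 2 libraries, and squares are H3K4me3. In the H3K4me2 libraries Hoxa lies between 2.51% and 3.78%, Hoxb between 0.621% and 1.15%, and Hoxc and Hoxd at 0%.

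Within cluster A the intervals were unevenly spread. Between 55 and 80 kb from the anterior outer end of the cluster, a stretch that runs from the outer start of Hoxa3 into Hoxa10, there were 13 and 11 intervals in DE and 12 and 11 in WT. The first 10 kb held 2 and 1 in DE and 3 and 3 in WT. The 45 kb from there to the dense stretch, most of it under the long annotated span of Hoxa3, held 1 and 1 in DE and 2 and 3 in WT. The last 26 kb, towards Hoxa13, held 0 and 0 in DE and 1 and 0 in WT. The final 20.248 kb before the outer end of Hoxa13 held no interval in any list.

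Of the anterior genes of cluster A, Hoxa2 and Hoxa3 were called in the 4 H3K4me2 lists. Hoxa2, which patterns the neural crest of the pharyngeal arches, was called through intervals outside its body, the nearest 5895 and 5906 bp from its start in DE and 4476 and 4471 bp in WT. Hoxa3, needed for the thymus and parathyroid, had an interval over its start in both DE lists and in WT replicate 2, and 13 bp from it in WT replicate 1. Its annotated span of 44009 bp also covers Hoxa4, Hoxa5 and Hoxa6, so its 7 and 6 intervals in DE and 6 and 9 in WT are partly those of its neighbours.

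Among the central genes, Hoxa4, Hoxa6 and Hoxa7 were called in all 4 lists. Hoxa6 was called through intervals near the start of Hoxa3 in the DE lists and, with one over Hoxa5, in WT replicate 2. The nearest to its own start lay 2629 and 2828 bp away in DE and 2662 bp away in WT replicate 2, against 149 bp in WT replicate 1. Hoxa5, which acts in the developing lung, was called in both WT lists and neither DE list. Its intervals were weak and lay in different places, one of 96 bp that was 4234 bp from its start in WT replicate 1 (−log10 p of 4.82, 3 fragments) and one of 138 bp over its start in WT replicate 2 (4.99, 8 fragments). It was the 1 Hox gene with this pattern, which 3.68% of all genes had, and no Hox gene had the reverse, which 0.213% of all genes had. Without DE replicate 1 the count was 3, with Hoxb5 and Hoxb6 added, and without WT replicate 2 it was 2, with Hoxa11 added. Of the posterior genes, Hoxa9 and Hoxa10 were called in all 4 lists. Hoxa11, which patterns kidney and limb, was called in WT replicate 1 alone, and Hoxa13, which patterns digits and the genital tract, in none. Hoxa10, a regulator of blood progenitors, was called in DE and in WT replicate 2 through intervals outside its body, while WT replicate 1 had 2 intervals in its body. The intervals outside lay 5525 and 4173 bp in DE and 5589 bp in WT replicate 2 from the nearest of its listed starts. That start lies inside the gene, so its outer start was farther away.

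Merging overlapping H3K4me2 intervals gave 25 regions in cluster A and 8 in cluster B, 33 in all. Of these, 13 were called in all 4 lists (9 in A and 4 in B), as 29.7% of the 40931 regions of the autosomes and X were. In A, 10 regions were in 1 list, 4 in 2 lists and 2 in 3 lists. In B, 1 was in 1 list and 3 were in 3 lists. The 9 A regions in all lists had a median width of 500 bp against 153.5 bp for the others, and the 4 B regions 498.5 bp against 205 bp. A merged region widens with each list that adds an interval to it, so this contrast follows in part from the merging. The 10 single-list regions of A were at −log10 p of 3.62 to 9.70, and 3 of them were called in DE and 7 in WT.

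The strongest region of cluster A, chr6:52221346-52222014, was 669 bp wide and lay between Hoxa7 and Hoxa9, 66.0 kb from the anterior outer end of the cluster. Its −log10 p was 66.6 and 46.7 in DE and 59.1 and 84.1 in WT, so the DE values fell on either side of the lower WT value. The fold over local background was 25.9 and 19.5 in DE and 26.4 and 30.8 in WT, with 61 and 56 fragments at the summit in DE and 38 and 63 in WT. These fragment numbers were worked back from the fold and the p of the summit and are an inference, not a deposited count. By p, its rank from the top fell within 0.410% and 0.692% of the intervals in DE and within 0.579% and 0.893% in WT. The region lay 2773 bp from the start of Hoxa7 and 1083 bp from the far end of Hoxa9, so it was at neither annotated start.

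The second region by mean strength, chr6:52191818-52192317, lay inside Hoxa3 and 115 bp from an end of Hoxa4. Its −log10 p was 34.9 and 21.2 in DE and 25.2 and 56.2 in WT, with 29 and 24 fragments in DE and 14 and 36 in WT. It was the 1 Hox region that shared bases with an H3K4me3 interval, as 14.2% of all regions did. The third, chr6:52225733-52226322, lay inside Hoxa9, the leukaemia-linked stem cell regulator, 1048 bp from its start, at 17.2 and 24.2 in DE and 17.9 and 54.5 in WT. Its fragments numbered 21 and 43 in DE and 18 and 55 in WT. The last of the 4 strongest, chr6:52217476-52217710, lay inside Hoxa7, 863 bp from its start, at 19.6 and 21.9 in DE and 31.7 and 35.4 in WT. There the DE and WT values did not overlap, with both DE values lower, while the fragments, 31 and 40 in DE and 23 and 40 in WT, did overlap. The fragments are not scaled between libraries.

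**Figure D4:**
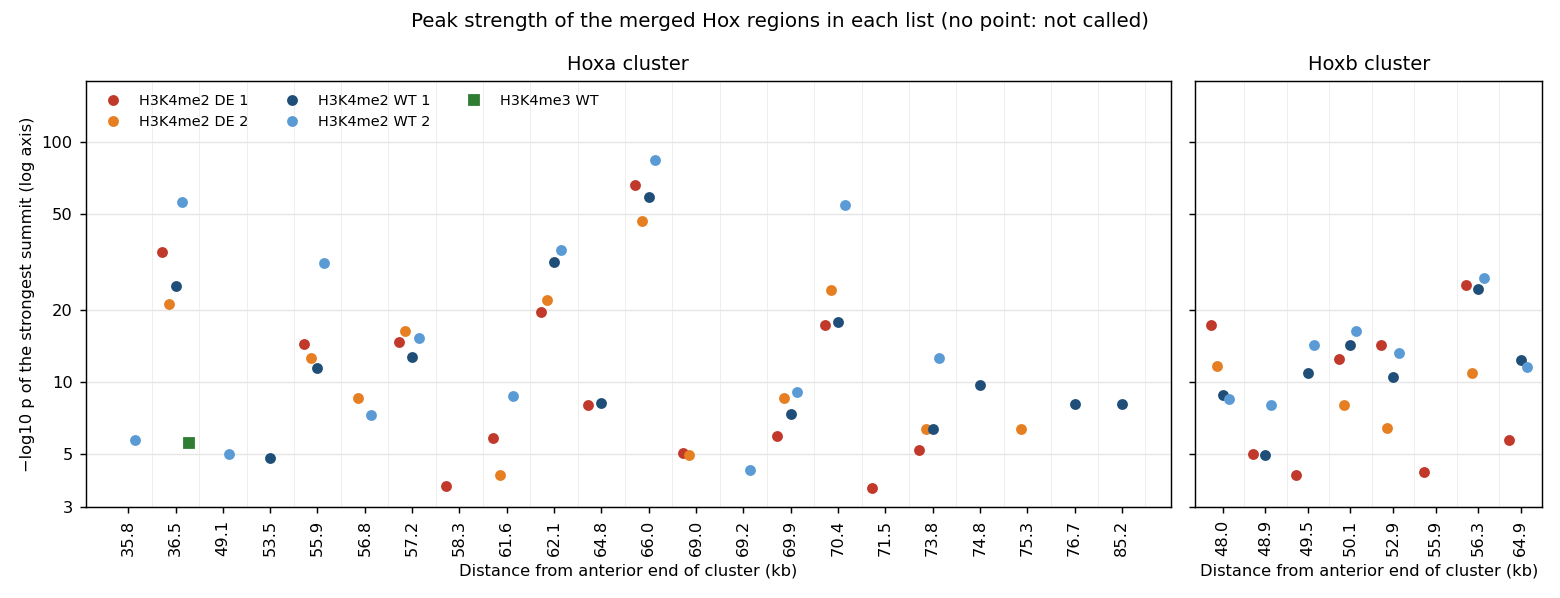
−log10 p (log axis) of the strongest summit of each merged Hoxa region (left) and Hoxb region (right) in each list, with regions in order of their distance in kb from the anterior outer end of the cluster, without the first 5 kb of Hoxa. Circles are H3K4me2 libraries, with DE left of WT, the square is H3K4me3, and a library with no point did not call the region. The region at 66.0 kb is at 46.7 to 84.1.

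Calls in both DE lists and neither WT list were found at 1 Hox region. The region chr6:52224324-52224538, inside Hoxa9, was called in both DE lists, at −log10 p of 5.06 and 4.94 with 7 and 8 fragments, and in neither WT list, a pattern of 1.11% of all regions. A WT interval lay next to it, as 2 bases separated it from chr6:52224541-52224641, called in WT replicate 2 at 4.30. The reverse pattern held for 8.79% of all regions.

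Within their own lists, Hox regions lay on both sides of the median strength. In cluster A, 8 of 15 and 8 of 13 regions were above the list median in DE, and 9 of 16 and 10 of 16 in WT. The top 1% of each list held 1 of them, the region between Hoxa7 and Hoxa9. In cluster B, 4 of 8 and 3 of 4 were above the median in DE, and 6 of 7 and 5 of 7 in WT, and none was in the top 1%.

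In cluster B all intervals lay within 17.065 kb, from between Hoxb6 and Hoxb5 into Hoxb4. On the posterior side 108.862 kb up to the outer end of Hoxb13 held none, and on the anterior side 48.012 kb up to that of Hoxb1 held none. Hoxb3 and Hoxb4, the gene that expands blood stem cells when overexpressed, were called in all 4 lists. Hoxb3 spans 40830 bp and includes Hoxb4. Hoxb5, which marks long-term stem cells, and Hoxb6 were called in DE replicate 1 and both WT lists through 1 shared region, chr11:96303178-96303328, at −log10 p of 5.75 in DE replicate 1 and 12.4 and 11.5 in WT.

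The strongest region of cluster B, chr11:96311533-96311990, lay inside Hoxb3. Its −log10 p was 25.4 and 10.9 in DE and 24.4 and 27.2 in WT, its fold 6.82 and 4.22 in DE and 11.1 and 7.02 in WT, and its fragments 56 and 42 in DE and 26 and 50 in WT. DE replicate 2 was the lowest by p, and WT replicate 1 by fragments. The region chr11:96317625-96318163, 104 bp from the start of Hoxb4 and reaching into the window printed above, was at 12.5 and 8.0 in DE and 14.3 and 16.3 in WT. The fragments there were 17 and 15 in DE and 9 and 14 in WT. Both DE values of −log10 p were below both WT values, while both fragment numbers, which are not scaled between libraries, were higher in DE. The region chr11:96320014-96320242, inside Hoxb4, was at 17.2 and 11.7 in DE and 8.80 and 8.52 in WT, with 18 and 17 fragments in DE and 6 and 9 in WT. Both DE values of −log10 p were above both WT values there. The region chr11:96314773-96315391 was at 14.2 and 6.42 in DE and 10.4 and 13.2 in WT, and the groups overlapped.

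The H3K4me3 interval of cluster A, chr6:52191886-52191986, was 101 bp wide and 183 bp from an end of Hoxa4. It called Hoxa4 and, since that gene lies inside the long span of Hoxa3, Hoxa3 as well. Its −log10 p was 5.58, its −log10 q 2.09 and its fold 4.56, from 20 fragments, and 86.3% of the list's intervals ranked at or above it. These 20 fragments are not on the scale of the H3K4me2 fragment numbers given above. With 1 library of another batch, the marks cannot be compared beyond these lists.

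Clusters C and D stood in long stretches without an interval in any of the 5 lists. Around cluster C, with Hoxc4, Hoxc5, Hoxc6 and Hoxc8 to Hoxc13, the stretch was 440.81 kb long, with 198.73 kb beyond the outer end of Hoxc13 and 126.356 kb beyond that of Hoxc4. Of 39491 such stretches, 936 were as long or longer, and 46 of those held at least as many as its 9 protein-coding genes. Around cluster D, with Hoxd1, Hoxd3, Hoxd4 and Hoxd8 to Hoxd13, it was 246.622 kb long and also held Evx2, a homeobox gene, making 10 genes. There 2337 stretches were as long or longer, and 73 of those held at least as many genes. An empty list shows that nothing passed the caller's limit, not that the mark is absent.

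The 2 nearest protein-coding genes on each side showed where the calls resumed. By cluster A, Skap2, Snx10 and Hibadh were called in all 4 H3K4me2 lists and Evx1 in none. By cluster B, Snx11 was called in all 4, Skap1 in WT replicate 2 alone, and Ttll6 and Calcoco2 in none. By cluster C, Calcoco1, Atp5g2 and Cbx5, a heterochromatin protein gene, were called in all 4, and Smug1 in all but DE replicate 1. By cluster D, Lnpk and Mtx2 were called in all 4, Gm50595 in WT replicate 1 alone, and Evx2 in none. The H3K4me3 list called Skap2, Atp5g2 and Cbx5.

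Of 33 genes for HOX cofactors and regulators, 22 were called in all 4 H3K4me2 lists and 4 in none, with 26 and 22 called in DE and 27 and 27 in WT, against the shares of all genes given above. The H3K4me3 list called 17. Among 9 genes of the TALE homeodomain proteins that bind DNA with HOX proteins, 4 were called in all 4 lists, including Meis1 with 10 and 8 intervals in DE and 11 and 11 in WT. Pbx4 was called in both WT lists and neither DE list, Meis2 in WT replicate 1 alone, Pknox2 in DE replicate 1 alone, and Meis3 in none. Of 9 genes of the MLL1 complex and its partners, which methylate lysine 4 or act with MLL1 in leukaemia, 8 were called in all 4 lists. Kmt2a, which encodes MLL1, had 6 and 6 intervals in DE and 7 and 7 in WT, and Men1, which encodes its partner menin, 6 and 5 in DE and 7 and 7 in WT. Of 12 Polycomb genes, 10 were called in all 4 lists, among them the methyltransferase genes Ezh1 and Ezh2, and Phc1 was called in WT replicate 2 alone. The 3 CDX genes, activators of Hox genes in the embryo (Cdx1, Cdx2 and Cdx4), were called in none.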

How the data were processed

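The files used were peak lists of 5 single libraries. Reads were trimmed, aligned to mm10 and peaks called with Trimmomatic, Bowtie2, SAMtools, Picard and MACS2 2.2.9.1, per the submitters' processing notes. Settings, duplicate handling and any control were not given in the sources used here. The libraries were sequenced as 150-bp paired ends, per the labels' protocols. Per entry, the authors deposited a score (the whole part of 10 times the −log10 q) and the fold at the summit, a ratio to local background within that library. The deposited −log10 of p and of q and the deposited summit offset complete it. The lowest −log10 q was 1.00 to 1.02. The header of the DE replicate 1 list names replicate 2, and the series record was followed for its identity.

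Entries that share an interval were counted once, by their strongest p, and intervals off the autosomes and X were left out. Gene bounds were those of RefSeq on GRCm38.p6 (mm10), without strand. Starts were known for 22 of 39 members from the promoter table, and either gene end was used for the others, where the design spoke of starts. Regions are the union of overlapping intervals of the 4 H3K4me2 lists, called by at least 1 shared base. Chromosome lengths for autosomal coverage end at the last gene or interval. The fragments at a summit were solved from its fold and Poisson p, taking whole fragments of 1 weight per library, which held for 100% of 400 sampled summits in each list. The solved weight of a fragment was 0.834 and 0.679 in DE, 1 and 0.963 in WT and 0.263 in the H3K4me3 list. Fragment numbers of different libraries are therefore on different scales. Such counts carry counting error, and also differ with depth, with any duplicates kept and between replicates. Coordinates count from 1. Calls, coverage, permutation tests and the fragment solution were tested on simulated data (Python 3.11.15, numpy 2.4.6, pandas 2.3.3, scipy 1.17.1). Members were placed as called or not called, and some genes and 1 region that the rule names are not reported here. Per-library values were given for the 4 regions per cluster of highest mean −log10 p, for regions of 1 genotype and for those with H3K4me3. The members and lists were chosen with earlier results of these data known. Alternatives were the gene body, 1 kb around starts, a −log10 q of at least 5, lists cut to equal length, clusters without flanks, coverage relative to the autosomes, other merging, and leaving out each library.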

Additional observations from a re-analysis of the deposited data

How the results depend on the processing

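Of 125 alternative values for 18 results, 112 kept their direction and stayed within the limits set for a change, and 12 moved and 1 reversed. The 112 include values of clusters C and D that stayed at 0 because no list had an interval there. They also include replicate-block differences, which cannot change. Neither kind could move, so 112 overstates how far the results were put to the test. The 10 genes in all H3K4me2 lists became 6 when an interval had to overlap the gene and 4 within 1 kb of a start, and 10 to 12 with a library left out. The 1 gene in both WT lists and neither DE list became 0 by overlap, 2 at a −log10 q of at least 5 (Hoxb5 and Hoxb6 in place of Hoxa5) and 0 with lists of 17059 intervals each, and 1 to 3 with a library left out. The 2 H3K4me3 genes became 1 by overlap, 1 by starts and 0 at a −log10 q of at least 5. Requiring 50% of a region to be covered left 4 of 9 regions in all lists in cluster A and 1 of 4 in B. The DE minus WT coverage of cluster B, 0.223 points, was −0.205 at a −log10 q of at least 5 (exact permutation p = 0.667). The causes were not tested, beyond the stricter rules admitting fewer intervals. With a library left out, the DE minus WT difference was 0.0238 to 1.18 points in A and 0.0410 to 0.404 in B. Replicate numbers in the labels do not say that samples were paired, and would give 2 pairs. Calls of DE replicate 1 and WT replicate 1 were each taken as deviations from their genotype mean. Over 40931 merged H3K4me2 regions the correlation of these deviations was −0.0476. With the replicate block the differences were unchanged by construction, at 0.600 points in A and 0.223 in B, with exact p = 1. The 5 differences that involve cluster A or B kept their sign in every alternative run. Those from C or D could not turn negative, as C and D stayed at 0. Calls that rest on few fragments are limited by depth, and 2 libraries per genotype limit every comparison.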

Other observations

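The non-coding genes within the cluster spans lie among the coding genes and share their intervals, so their calls are not independent of those above. They were looked at after the values of the clusters were seen. Of 27923 genes of the autosomes and X that are not protein-coding, 11.6% were called within 5 kb in all 4 H3K4me2 lists and 5.09% were overlapped in all of them. Of 12 in cluster A, 7 were called within 5 kb in all 4 H3K4me2 lists and 4 were overlapped in all of them, namely Hotairm1, Hoxaas3, LOC115490409 and Gm52902. Of 9 in cluster B, 2 were called in all 4 lists and none was overlapped in all of them. None of 6 in cluster C, Hotair among them, and none of 5 in cluster D was called in any H3K4me2 list.

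Among them are microRNAs of 2 families that recur between clusters, printed with the seed (bases 2 to 8) in capitals, from RefSeq on GRCm38.p6.
miR-196b-5p: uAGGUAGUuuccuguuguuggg
miR-196a-5p: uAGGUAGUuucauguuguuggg
miR-10a-5p: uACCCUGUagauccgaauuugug
miR-10b-5p: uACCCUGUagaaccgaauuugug
The miR-196 pair shares the seed AGGUAGU and the miR-10 pair ACCCUGU. Mir196b, between Hoxa9 and Hoxa10, had its nearest interval 667 and 453 bp away in DE and 0 and 731 bp away in WT. Mir196a-1, in cluster B, had its nearest 37952 and 46302 bp away in DE and 37913 and 37924 bp away in WT, and Mir196a-2, in cluster C, none closer than 189778 bp in any H3K4me2 list. Mir10a, beside Hoxb4, had its nearest 351 and 393 bp away in DE and 603 and 393 bp away in WT, and Mir10b, in cluster D, none closer than 99607 bp.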
